A study of Homo sapiens with 22 samples.

Results

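The histone genes of the chromosome 6 cluster were examined in 4 deposited lists of open chromatin and CTCF regions. They were taken as the RefSeq protein-coding genes in the histone interval of the short arm of chromosome 6 whose symbol begins with H1-, H2AC, H2BC, H3C or H4C (build hg38, assembly GRCh38 patch 14). The first and last of them bound chr6:25726063-27893891. This gave 55 of the 19974 protein-coding genes considered, with 6 linker histone (H1), 12 H2A, 15 H2B, 10 H3 and 12 H4 genes. The study compared chromosome conformation capture assays, and these data are the open chromatin and protein maps made beside them. Of its 22 libraries, 12 in 3 groups gave the lists used here and carried a sample label. They were 8 ATAC-seq libraries of HFFc6, 2 ATAC-seq libraries of H1, and 2 Cut&Tag libraries of HFFc6 with an antibody to CTCF.

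HFFc6 is a single subclone (c6) of human foreskin fibroblasts immortalised with telomerase (HFF-hTERT). The stem cells were of the human embryonic line H1. The cell line H1 shares its name with the linker histone H1, so those genes are called linker histone genes throughout. ATAC-seq maps open chromatin with the transposase Tn5, and Cut&Tag uses an antibody to bring Tn5 to a protein, here the zinc-finger protein CTCF that anchors chromatin loops. The labels name no treatment, and the ATAC-seq libraries used no antibody. HFF1 stands in the titles of the CTCF libraries, and HFFc6 was taken from their cell line label. The titles of the 8 HFFc6 ATAC libraries combine 2 R numbers with 4 T numbers, which no label explains. A further CTCF list bears the name of human embryonic stem cells (hESC) and is referred to as hESC-named CTCF. None of the sample labels names it, and its assay and libraries are unknown here.

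Each list was 1 call for its group and held no value per library, so nothing below has a replicate error and no difference between lists was tested. The ATAC lists held 155746 regions in HFFc6 and 189982 in H1, and the CTCF lists 82297 (HFFc6) and 104785 (hESC-named). Their depth in reads is unknown. As a check of the labels, 10 markers of pluripotent cells and 10 of fibroblasts were looked up. A region within 1 kb of the start of a pluripotency marker was listed for 2 of 6 markers with a known start in HFFc6 ATAC and 5 of 6 in H1 ATAC. The HFFc6 CTCF list had 1 and the hESC-named list 4. For the fibroblast markers the counts were 5, 3, 4 and 2 of 5. Within 1 kb of the whole gene body, every fibroblast marker had a region in both ATAC lists, so the wider rule did not tell the lines apart there. By that rule 8 of 10 pluripotency markers had a region in HFFc6 ATAC and all 10 in H1 ATAC.

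Histones package DNA: pairs of H2A, H2B, H3 and H4 form the core of the nucleosome, and linker histones bind the DNA between cores. Most genes of this cluster are replication-dependent. They are transcribed in S phase, lack introns, and their mRNAs end in a stem-loop in place of a poly(A) tail. Many H2A and H2B genes lie head to head and share the stretch of DNA between their starts. Transcription depends on the coactivator NPAT, together with factors such as HINFP at H4 promoters and OCT1 (POU2F1) at H2B promoters.

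The members were short and crowded. Their median length was 489 bp (range 386 to 13229), against 24170.5 bp for all protein-coding genes, and 50 of 55 were no longer than 1 kb. They fell into 4 sub-clusters separated by more than 200 kb. The first held the testis histone genes H2AC1 and H2BC1 (chr6:25726063-25727345). The second ran from H1-1 to H4C8 with 32 genes (chr6:26017032-26285534), the next from H2BC11 to H2AC12 with 5 genes (chr6:27132316-27147562), and the last from H2BC13 to H2BC17 with 16 genes (chr6:27807479-27893891). The gaps measured 289.687, 846.782 and 659.917 kb. The interval also held 21 other protein-coding genes and 100 tRNA genes.

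RefSeq promoter sequence was matched to 50 of the 55 members, all but H4C1, H4C3, H2AC12, H3C11 and H3C12, and these entries also gave strand and gene start. The 250 bases before the start are shown for 6 members. They are the gene of each histone type with the highest HFFc6 ATAC fold enrichment among those with a sequence, and H4C7, a divergent H4 gene with no region in any list. The H2BC5 region with that value lies beyond the end of the gene. Capitals mark the CCAAT box (CCAAT), the TATA box (TATAAA), the octamer bound by OCT1 (ATTTGCAT), the linker histone box (AAACACA) and the core of the H4 element bound by HINFP (GGTCCG), each on either strand. Sequences read 5′ to 3′ on the gene's strand in GRCh38.
H1-2 (chr6:26056471-26056720, minus strand): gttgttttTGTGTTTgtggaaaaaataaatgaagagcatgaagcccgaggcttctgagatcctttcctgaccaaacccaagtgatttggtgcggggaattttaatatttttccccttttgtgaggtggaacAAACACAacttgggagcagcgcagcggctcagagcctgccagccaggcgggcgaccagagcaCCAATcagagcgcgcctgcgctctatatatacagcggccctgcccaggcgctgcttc
H2AC8 (chr6:26216671-26216920, plus strand): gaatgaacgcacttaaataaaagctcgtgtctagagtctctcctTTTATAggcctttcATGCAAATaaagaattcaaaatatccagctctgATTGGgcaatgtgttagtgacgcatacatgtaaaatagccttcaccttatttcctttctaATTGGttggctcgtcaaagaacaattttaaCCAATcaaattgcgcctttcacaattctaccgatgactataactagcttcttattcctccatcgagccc
H2BC5 (chr6:26157871-26158120, plus strand): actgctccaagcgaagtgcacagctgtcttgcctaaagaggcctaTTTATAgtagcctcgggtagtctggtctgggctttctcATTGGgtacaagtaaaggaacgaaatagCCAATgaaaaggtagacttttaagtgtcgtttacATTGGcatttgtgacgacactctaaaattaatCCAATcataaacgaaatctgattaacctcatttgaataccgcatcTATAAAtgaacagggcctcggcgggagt
H3C6 (chr6:26223928-26224177, plus strand): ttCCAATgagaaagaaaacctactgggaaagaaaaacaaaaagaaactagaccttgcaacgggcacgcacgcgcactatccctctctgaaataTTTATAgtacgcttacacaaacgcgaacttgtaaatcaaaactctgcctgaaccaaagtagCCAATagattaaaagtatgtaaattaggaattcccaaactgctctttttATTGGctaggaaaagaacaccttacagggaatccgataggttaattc
H4C6 (chr6:26240143-26240392, plus strand): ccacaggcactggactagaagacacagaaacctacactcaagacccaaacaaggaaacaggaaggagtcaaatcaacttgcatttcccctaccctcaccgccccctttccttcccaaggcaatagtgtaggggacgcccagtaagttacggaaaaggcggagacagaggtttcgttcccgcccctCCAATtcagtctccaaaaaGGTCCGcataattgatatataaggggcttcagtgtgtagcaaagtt
H4C7 (chr6:26246997-26247246, minus strand): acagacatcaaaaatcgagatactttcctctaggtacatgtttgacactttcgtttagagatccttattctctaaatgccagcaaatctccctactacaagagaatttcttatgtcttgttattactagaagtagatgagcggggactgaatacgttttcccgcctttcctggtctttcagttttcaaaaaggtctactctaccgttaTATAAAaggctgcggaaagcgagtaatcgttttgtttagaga

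These boxes were common in the cluster. In the window from 250 bases before to 50 after the start, searched on both strands, CCAAT was present in 43 of 50 member promoters (86%) and in 36.3% of 15812 protein-coding promoters. TATAAA was present in 33 (66%) against 9.64%. On the gene's own strand and starting 40 to 20 bases before the start, it was present in 26 (52%) against 3.64%. The octamer ATTTGCAT was present in 22 (44%) against 1.70%. A match is a description of the letters and not a measured binding site.

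The boxes divided by histone type. Every linker histone, H2A, H2B and H3 promoter held CCAAT, against 3 of 10 H4 promoters. The octamer was found in 9 of 11 H2A and 12 of 15 H2B promoters, and head-to-head pairs count the same bases for both genes. It was otherwise found only at H3C4, whose RefSeq start is that of H2AC7. AAACACA was found in all 6 linker histone promoters and in no other member, against 4.25% of protein-coding promoters. GGTCCG was found in 9 of 10 H4 promoters and at H3C7, 20% of members against 14.5% of protein-coding promoters.

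**Figure D1:**
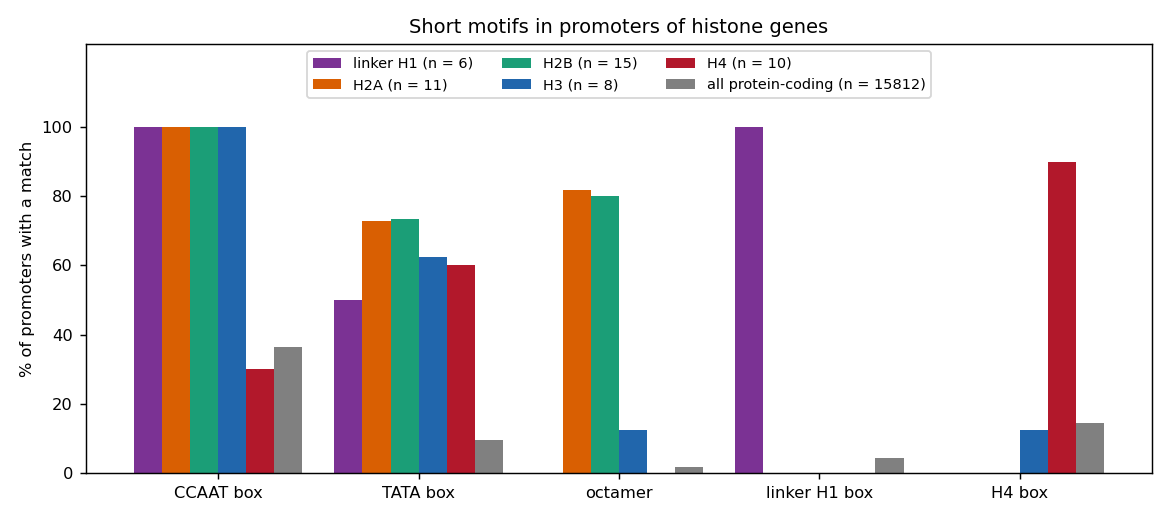
Share of promoters (y axis, percent) that hold each short motif on either strand within the 300 bases around the start, for the 5 histone types of the cluster and for all protein-coding promoters (bars; n in the legend). The octamer reaches 81.8% of H2A and 80% of H2B promoters, the linker histone box 100% of linker histone promoters, and the H4 box 90% of H4 promoters.

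The H4 element lay at nearly the same place in each gene, and H4C7 was the H4 promoter without it. The stretches from 60 to 21 bases before the start are shown for all 10 H4 promoters with a sequence, and were chosen after the matches had been seen. Capitals mark GGTCCG and TATAAA. The first base of GGTCCG lay 47 to 44 bases before the start in the 9 genes.
H4C2 (chr6:26027304-26027343, minus strand): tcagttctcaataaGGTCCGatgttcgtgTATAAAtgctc
H4C4 (chr6:26189133-26189172, minus strand): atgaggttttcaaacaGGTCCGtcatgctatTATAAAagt
H4C5 (chr6:26204550-26204589, plus strand): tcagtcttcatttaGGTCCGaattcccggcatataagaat
H4C6 (chr6:26240333-26240372, plus strand): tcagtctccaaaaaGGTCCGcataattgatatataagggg
H4C7 (chr6:26247017-26247056, minus strand): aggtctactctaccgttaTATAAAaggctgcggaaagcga
H4C8 (chr6:26285555-26285594, minus strand): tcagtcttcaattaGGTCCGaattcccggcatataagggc
H4C9 (chr6:27139222-27139261, plus strand): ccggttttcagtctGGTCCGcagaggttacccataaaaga
H4C11 (chr6:27824032-27824071, plus strand): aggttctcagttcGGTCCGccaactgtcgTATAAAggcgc
H4C12 (chr6:27831581-27831620, minus strand): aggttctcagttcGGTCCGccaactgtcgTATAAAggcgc
H4C13 (chr6:27873555-27873594, minus strand): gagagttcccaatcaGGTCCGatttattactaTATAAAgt

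The linker histone promoters carried AAACACA upstream of CCAAT. Stretches of 80 bases that end 46 bases before the start are shown for all 6 and were also chosen after the matches had been seen, with capitals for AAACACA and for CCAAT on either strand. In 5 of them AAACACA began 119 to 105 bases before the start. In H1-1 the match lay farther upstream, 183 bases before the start and on the other strand, so it is outside the stretch shown. The testis gene H1-6 held both boxes and had no region in any of the 4 lists.
H1-1 (chr6:26017833-26017912, minus strand): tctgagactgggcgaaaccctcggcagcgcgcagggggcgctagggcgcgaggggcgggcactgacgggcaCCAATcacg
H1-2 (chr6:26056516-26056595, minus strand): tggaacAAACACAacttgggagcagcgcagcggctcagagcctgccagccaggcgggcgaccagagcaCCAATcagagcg
H1-6 (chr6:26108181-26108260, minus strand): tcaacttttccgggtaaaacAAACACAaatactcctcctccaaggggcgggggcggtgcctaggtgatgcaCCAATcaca
H1-4 (chr6:26156204-26156283, plus strand): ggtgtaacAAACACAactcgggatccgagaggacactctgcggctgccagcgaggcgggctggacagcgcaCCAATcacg
H1-3 (chr6:26235033-26235112, minus strand): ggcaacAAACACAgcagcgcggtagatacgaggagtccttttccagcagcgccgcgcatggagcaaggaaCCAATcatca
H1-5 (chr6:27867634-27867713, minus strand): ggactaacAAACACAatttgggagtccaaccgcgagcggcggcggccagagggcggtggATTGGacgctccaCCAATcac

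Nearly all members lay in or beside an open region in both cell lines. A region within 1 kb of the gene body was listed for 53 of 55 members in HFFc6 ATAC, against 85.8% of all protein-coding genes. H1 ATAC had one at 50 members (88.5% of all genes). For CTCF it was 50 members in the HFFc6 list (80.7%) and 46 in the hESC-named list (84%). All 4 lists had a region at 46 members, against 75.8% of all genes. As shares these are 96.4, 90.9, 90.9 and 83.6% of the members, so the H1 ATAC and hESC-named CTCF counts were close to the background. The whole-gene rule favours long genes, and the members are short.

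Counted from the gene start the same lists stood further from the background. Among the 50 members with a known start, 48 had an HFFc6 ATAC region within 1 kb of it (74.1% of 15812 protein-coding genes), 45 an H1 ATAC region (77.8%), 46 an HFFc6 CTCF region (67.3%) and 41 an hESC-named CTCF region (67.5%). A region of all 4 lists was near the start of 41 members, against 58.1% of genes. An ATAC region covered the start itself of 46 members in HFFc6 (67.1% of genes) and of 45 in H1 (65.7%). A CTCF region did so for 46 members in HFFc6 (58%) and 31 by the hESC-named list (46%). No test could be made of these differences.

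The same counts can be split by pairs of lists. Near the start of 45 members both ATAC lists had a region (69.4% of 15812 protein-coding genes), at 3 only the HFFc6 list did (4.78%), at 0 only the H1 list (8.45%), and 2 had none (17.4%). Both CTCF lists had one at 41 members (59.5%), only the HFFc6 list at 5 (7.8%), only the hESC-named list at 0 (7.97%), and 4 had none (24.7%).

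Base composition set the members apart from most promoters. Their promoters had a median GC content of 42.3% (36.3 to 58.0) and 10.5 CpG dinucleotides, against 62.7% and 22 for all protein-coding promoters. Of the 46 member promoters under 50% GC, 44 had an HFFc6 ATAC region within 1 kb of the start, against 38.4% of the 2809 protein-coding promoters under 50% GC. For H1 ATAC it was 41 against 38%, for HFFc6 CTCF 42 against 26.6%, and for hESC-named CTCF 38 against 28.2%. Protein-coding promoters of 50% GC or more had such regions in 81.9, 86.4, 76.1 and 76% of cases in the same order of lists.

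**Figure D2:**
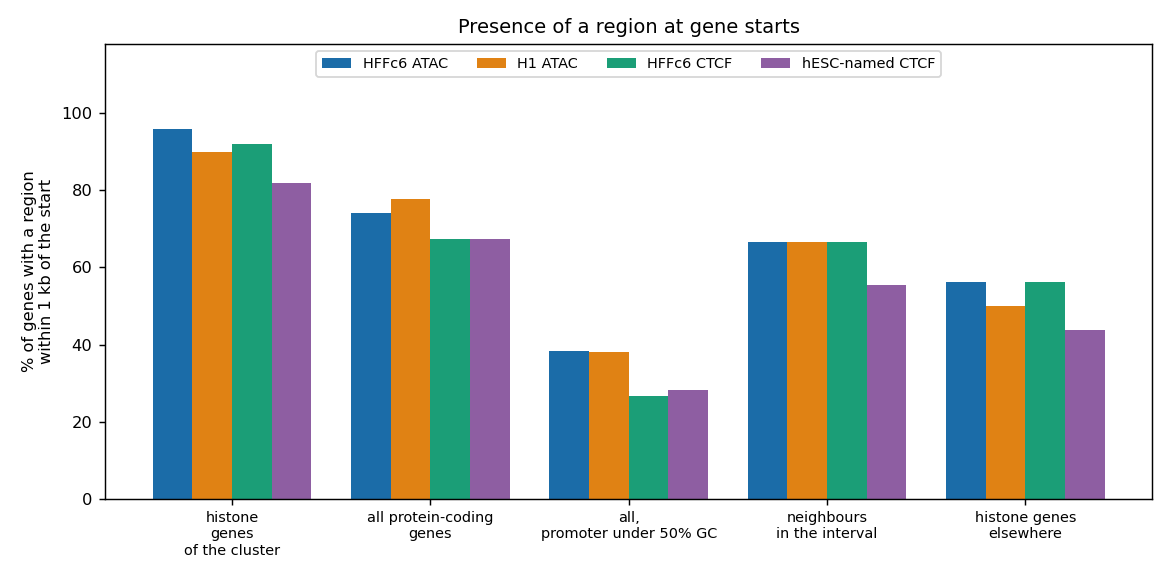
Percent of genes with a region within 1 kb of the start (y axis) in each list (bar colours), for the histone genes of the cluster, all protein-coding genes, protein-coding genes with a promoter under 50% GC, the other protein-coding genes of the interval and histone genes elsewhere. In HFFc6 ATAC the bars stand at 96.0, 74.1, 38.4, 66.7 and 56.3%.

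The other protein-coding genes of the interval and histone genes elsewhere were counted in the same way, without a test. Of the 18 other protein-coding genes of the interval with a known start, 12 had a region near it in each list but hESC-named CTCF, where it was 10. Of 16 replication-dependent or testis histone genes elsewhere with a known start, 9, 8, 9 and 7 had one. Repeated sequence was not searched for among these 16 genes, and the part of reads with several matches in their counts was not tested. H3C14, H3C15, H4C14, H4C15 and the testis genes H1-7 and H3-4 had none near the start in any list. Within 1 kb of its gene body, H4C15 had a region in each list. Among 10 variant histone genes with a known start, such as H2AZ1 and H3-3B, which are also expressed outside S phase, the counts were 9, 10, 10 and 9. H4C16 was counted in this set although its symbol begins with H4C, and it had a region near its start in each list. MACROH2A2 was the one without an HFFc6 ATAC region, and H3-3A the one without an hESC-named CTCF region.

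Genes for the machinery that transcribes, processes and deposits histones had regions in nearly every case. All 29 had a region within 1 kb of the gene body in both ATAC lists and in HFFc6 CTCF. They include NPAT, HINFP, POU2F1, SLBP (the stem-loop binding protein) and the chaperone genes ASF1A, ASF1B, CHAF1A and CHAF1B. In the hESC-named CTCF list 28 had one, and LSM10, a part of the U7 snRNP that cuts histone mRNA, did not. By the same rule the shares of all protein-coding genes were 85.8 and 88.5% for ATAC in HFFc6 and H1. For CTCF they were 80.7% (HFFc6) and 84% (hESC-named), and no difference was tested.

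The few members that lacked regions in a list included testis histone genes. Both ATAC lists had a region at 50 members (83.2% of all genes). Only the HFFc6 list had one at 3 (2.62%), only the H1 list at 0 (5.33%), and 2 members had none in these lists (8.89%). Those without a region were H1-6, the testis linker histone (chr6:26107412-26108135), and H4C7 (chr6:26246611-26246996). The 3 with a region in HFFc6 only were the testis pair H2AC1 and H2BC1 and the H3 gene H3C3. H2AC1 and H2BC1 were tied to a single weak region of 235 bp and 2.34-fold enrichment whose summit lay 661 bp downstream of the H2BC1 start, past the end of that gene. Their promoters held 3 CCAAT boxes, TATAAA and the octamer, with no region covering either start in any list.

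Both CTCF lists had a region at 46 members (77.3% of all genes). Only the HFFc6 list had one at 4 (3.4%), only the hESC-named list at 0 (6.77%), and 5 members had none (12.6%). The 5 were H2AC1, H2BC1, H1-6, H4C7 and H3C12. The 4 with a region in HFFc6 only were H3C3, H1-3, H4C11 and H4C12. This class depended on the settings and held 7 members with a window of 500 bp and 15 with a −log10 q of at least 10. The H4 pair H4C11 and H4C12 had regions in all other lists. ATAC fold enrichment at H4C11 was 12.3 in HFFc6 and 10.3 in H1, and at H4C12 it was 12.4 and 11.2. In HFFc6 CTCF the values were 10.5 and 7.68.

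H4C11 and H4C12 also have near-identical promoters. They shared 94 words of 50 bases, and the 40 bases printed for them above are the same letters. Only 6 of the 50 member promoters shared a 50-base word with a promoter that does not overlap them, the others being H2BC13, H2AC13, H2AC14 and H2BC14, with 44 words each. How reads that map to more than one place were treated is not stated, so levels at these 6 genes are uncertain, and the part of such reads in the hESC-named list was not tested.

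Strength followed a similar order of histone types in both ATAC lists. The authors' lists give each region a fold enrichment, the signal at the summit relative to the background that the peak caller estimated, and it is compared here within a list only. For each member the strongest region within 1 kb was taken. In HFFc6 ATAC the median fold was 11.8 for H4, 10.6 for H2B, 9.73 for H2A, 8.91 for linker histone and 6.71 for H3 genes. In H1 ATAC the medians were 10.3 for H4, 8.64 for H2A, 8.40 for H2B, 7.94 for linker histone and 7.12 for H3 genes. H4 genes stood highest and H3 genes lowest in both, but the ranges overlapped: in HFFc6 ATAC H4 genes ran from 4.48 to 14.1 and H3 genes from 4.42 to 16.5.

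The CTCF lists had a partly different order. In HFFc6 CTCF the medians were 7.29 for H4, 6.74 for H2B, 6.73 for H2A, 5.81 for linker histone and 4.57 for H3 genes. In hESC-named CTCF they were 8.03 for H2B, 7.47 for H2A, 6.44 for linker histone, 5.21 for H4 and 4.89 for H3 genes. H3 genes were thus lowest in every list. Neighbouring members often share one region and then one value, so the genes of a type are not independent.

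The strongest and weakest members can be named. H3C6 had the highest HFFc6 ATAC fold, 16.5, in a region of 1747 bp at percentile 95.2 of that list, and H2AC1 the lowest, 2.34. In H1 ATAC H2BC5 was highest at 20.5 and H2BC3 lowest at 3.65. The H2BC5 value belonged to a region 13847 bp downstream of its start, beyond the end of this unusually long member (13229 bp). At the shared region by its start, the H1 ATAC fold was 7.94. H4C3 was highest in both CTCF lists, at 13.9 (HFFc6) and 14.3 (hESC-named). H3C10 was lowest in HFFc6 CTCF at 3.03, and H1-1 in hESC-named CTCF at 2.65.

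Set among all regions of its list, the strongest region of the median member stood at percentile 69.3 (HFFc6) and 68.1 (H1) for ATAC. For CTCF it stood at 54.7 (HFFc6) and 46.3 (hESC-named). Among regions within 1 kb of any protein-coding start the percentiles were 36.8, 46.1, 32.8 and 42.4. These values take the strongest of up to 3 regions per member. Over all regions at members the median percentiles were 68.6 and 54.4 for ATAC in HFFc6 and H1, and 47.3 and 36.4 for CTCF (HFFc6 and hESC-named). With regions of a −log10 q of at least 10 only, the percentile of the median member was 35.9 in H1 ATAC and 35.1 in HFFc6 CTCF. In hESC-named CTCF it was 23.2. These are ranks among the regions kept and lie below the middle of those shortened lists.

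**Figure D3:**
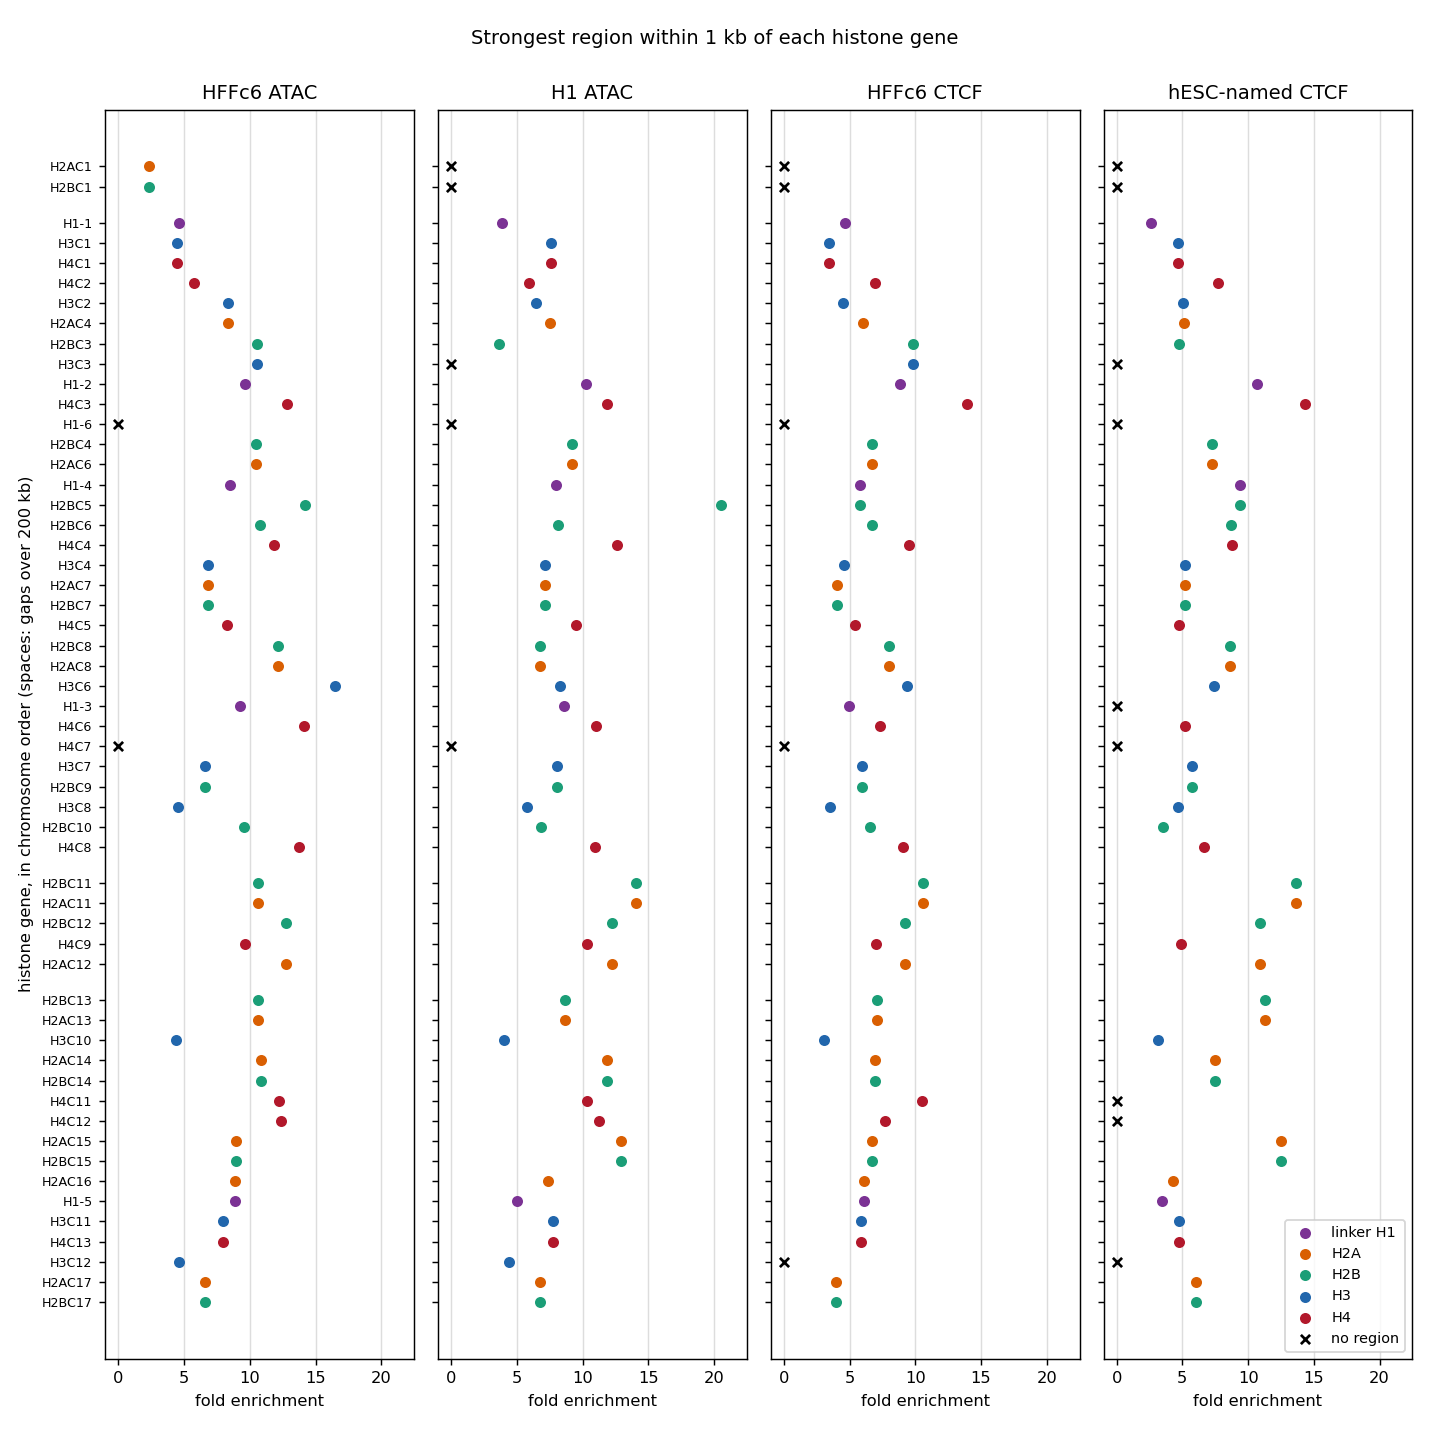
Fold enrichment (x axis) of the strongest region within 1 kb of each of the 55 histone genes, in chromosome order from top to bottom (y axis), in the 4 lists (panels). Points are coloured by histone type and crosses at 0 mark members with no region. The crosses number 2, 5, 5 and 9 from the left panel to the right, and H1-6 and H4C7 have one in every panel.

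Many regions lay at more than 1 member. The members had 40 distinct ATAC regions in HFFc6 and 65 in H1, and 45 distinct CTCF regions in HFFc6 and 43 by the hESC-named list. Of these, 19, 21, 19 and 17 lay within 1 kb of more than 1 member. HFFc6 ATAC regions at members were wide, with a median of 1752 bp against 1338 bp for regions at protein-coding starts. H1 ATAC regions were narrower, 497 against 602 bp. HFFc6 CTCF regions measured 1167 against 1055 bp, and hESC-named CTCF regions 407 against 610 bp.

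By histone type the number of regions per gene was small. In HFFc6 ATAC each linker histone, H2A and H4 gene with a region had exactly 1, and the most was 3, at an H2B gene. In H1 ATAC the most was also 3, reached among H2B, H3 and H4 genes. H3C6 was one of them, with regions of 6.42-, 8.29- and 3.48-fold enrichment. Summed over members there were 60 pairs of gene and region in HFFc6 ATAC and 87 in H1 ATAC.

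Most regions at members were found in both lists of an assay. An overlap of 1 bp with the other list of the same assay was seen for 38 of 40 HFFc6 ATAC regions, 95% (Wilson 95% interval 83.5 to 98.6). The share was 90.8% (81.3 to 95.7) of 65 H1 ATAC, 75.6% (61.3 to 85.8) of 45 HFFc6 CTCF and 93.0% (81.4 to 97.6) of 43 hESC-named CTCF regions. These intervals cover counting error only. Over all regions the shares were 34.7, 31.8, 50.9 and 41.3%. Over regions at protein-coding starts, which are the closer background, they were 90.7, 84.3, 83.0 and 82.3%. In HFFc6 CTCF alone the members' share lay below that of start regions. Each of the 4 start shares lay inside the members' interval for the same list, so no list stood clear of that background. The 2 HFFc6 ATAC regions that were not shared were the one beside H2AC1 and H2BC1 and one of 541 bp at H2BC9.

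CTCF regions at members coincided with open regions. All 45 HFFc6 CTCF regions at members (100%) overlapped an HFFc6 ATAC region, against 85.0% of all HFFc6 CTCF regions and 97.1% of those at protein-coding starts. In the hESC-named list 40 of 43 (93.0%) overlapped an H1 ATAC region, against 72.6% of all and 93.6% at starts. The other way round, 92.5% of HFFc6 ATAC and 63.1% of H1 ATAC regions at members overlapped a CTCF region of the matching list. The background was 43.9 and 41.3% of all regions and 87.0 and 73.2% of regions at protein-coding starts, so the H1 ATAC share lay below that of start regions.

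The core consensus of the CTCF motif was found in 0 of 50 member promoters, against 1.35% of protein-coding promoters and 2.06% of the 9171 starts covered by an HFFc6 CTCF region. With 1 mismatch allowed it was found in 1 member promoter, H1-5 (2%), against 10.7% of protein-coding promoters, 13.4% of the covered starts and 2.31% of promoters under 50% GC. The members' share was thus close to that of promoters of like GC content. The search covers these 300 bases only, while the HFFc6 CTCF regions at members had a median width of 1167 bp. In Cut&Tag the Tn5 enzyme can also cut open DNA without the antibody, and its part in these CTCF regions was not tested.

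Summits were placed differently along the genes in the 2 ATAC lists. Each region has 1 summit, and over the whole lists the median region was 707 bp wide in HFFc6 ATAC and 301 bp in H1 ATAC. At protein-coding starts the median widths were 1338 bp (HFFc6) and 602 bp (H1). The part of region width in the placement was not tested. Summit places are given for members only, so a difference between the lists cannot be called particular to the histone genes. The nearest summit, the point of highest signal in a region, lay at a median of −86.5 bp from the start in HFFc6 ATAC and −75 bp in H1 ATAC, where negative values are upstream. It was within 250 bp of the start for 44 of 45 members in H1 ATAC and for 35 of 48 in HFFc6 ATAC. In the CTCF lists the medians were 13 bp (HFFc6) and −103.5 bp (hESC-named), with 33 of 46 and 38 of 42 within 250 bp.

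HFFc6 ATAC had fewer and wider regions at members than H1 ATAC, and more of its nearest summits lay beyond the end of the gene. In HFFc6 ATAC the nearest summit lay within 300 bp upstream of the start for 30 members, inside the gene for 6, past its end for 10 and farther upstream for 2. In H1 ATAC the numbers were 36, 9, 0 and 0. By the summit of the strongest region in place of the nearest, 11 members in HFFc6 and 4 in H1 (H3C1, H1-4, H2BC5 and H4C13) had it past the gene's end. The 10 members with the nearest HFFc6 summit past the end were H2BC1, H3C1, H4C2, H2AC4, H1-2, H1-4, H3C7, H4C11, H1-5 and H4C13. For some of them the summit belonged to a wide region that also spans the start of a neighbour. The HFFc6 ATAC summit 1611 bp past the H1-4 start lay at −181 bp from the H2BC5 start. The one 2392 bp past the H1-5 start lay at −121 bp from the start of H2AC16, and the one 1416 bp past the H2AC4 start lay at −103 bp from that of H3C2.

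Linker histone genes are an example. Their nearest HFFc6 ATAC summits stood at 45 bp from the start for H1-1, 1272 for H1-2, 1611 for H1-4, −8 for H1-3 and 2392 for H1-5. In H1 ATAC the same genes had summits at −45, −10, −10, −45 and −49 bp. H1 ATAC also had regions around the 3 distant HFFc6 summits, at chr6:26054959-26055780 (5.87-fold) by H1-2, chr6:26157123-26158462 (7.94-fold) by H1-4 and chr6:27865014-27865672 (7.41-fold) by H2AC16, the neighbour of H1-5. In that list the start of these 3 genes had a summit of its own besides. The HFFc6 ATAC regions at linker histone genes had a median width of 2626 bp, against 320 bp in H1 ATAC, and each of the 5 genes had 1 HFFc6 ATAC region.

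**Figure D4:**
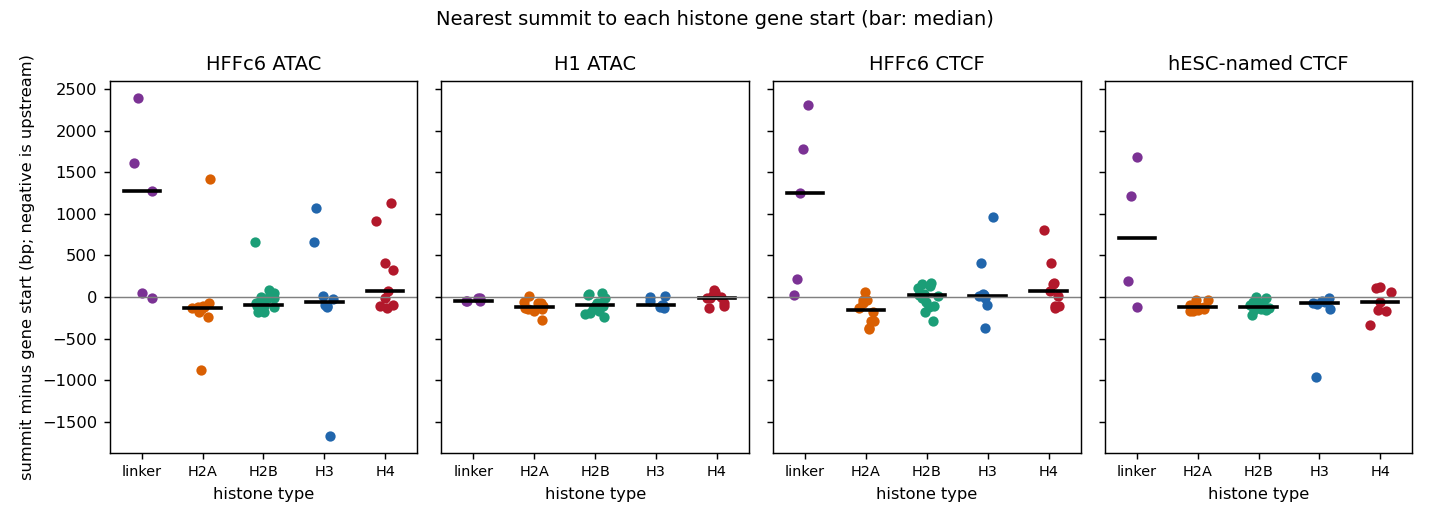
Distance in bp (y axis, negative is upstream) from each gene start to the nearest summit among regions within 1 kb of the gene, by histone type (x axis) in the 4 lists (panels). Each point is a gene and the bar is the median. The linker histone median is 1272 bp in HFFc6 ATAC and −45 bp in H1 ATAC.

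HFFc6 regions covered more of the typical member than the regions of the other lists. The midpoint of the gene lay inside an ATAC region for 46 of 55 members in HFFc6 and 30 in H1, and inside a CTCF region for 44 in HFFc6 and 8 by the hESC-named list. The median share of the gene covered was 100, 61.8, 100 and 17.5% in the same order. No part of the gene was covered in 3, 5, 5 and 19 members. These values are given for members only, and the members are short. Over the whole lists the median ATAC region was 707 bp in HFFc6 and 301 bp in H1. For CTCF the medians were 696 bp (HFFc6) and 496 bp (hESC-named). The part of gene length and region width in this coverage was not tested. Measured 500 bp downstream of the start, near the end of a typical member, an ATAC region covered 82% of members in HFFc6 and 6% in H1, against 54.8 and 24.2% of all protein-coding genes. A CTCF region covered 60% in HFFc6 and 6% by the hESC-named list, against 37.1 and 13.2%. The H1 ATAC profile of members thus lay below the background at that point, and above it again at 950 bp, where 36% of members were covered against 9.75% of genes.

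**Figure D5:**
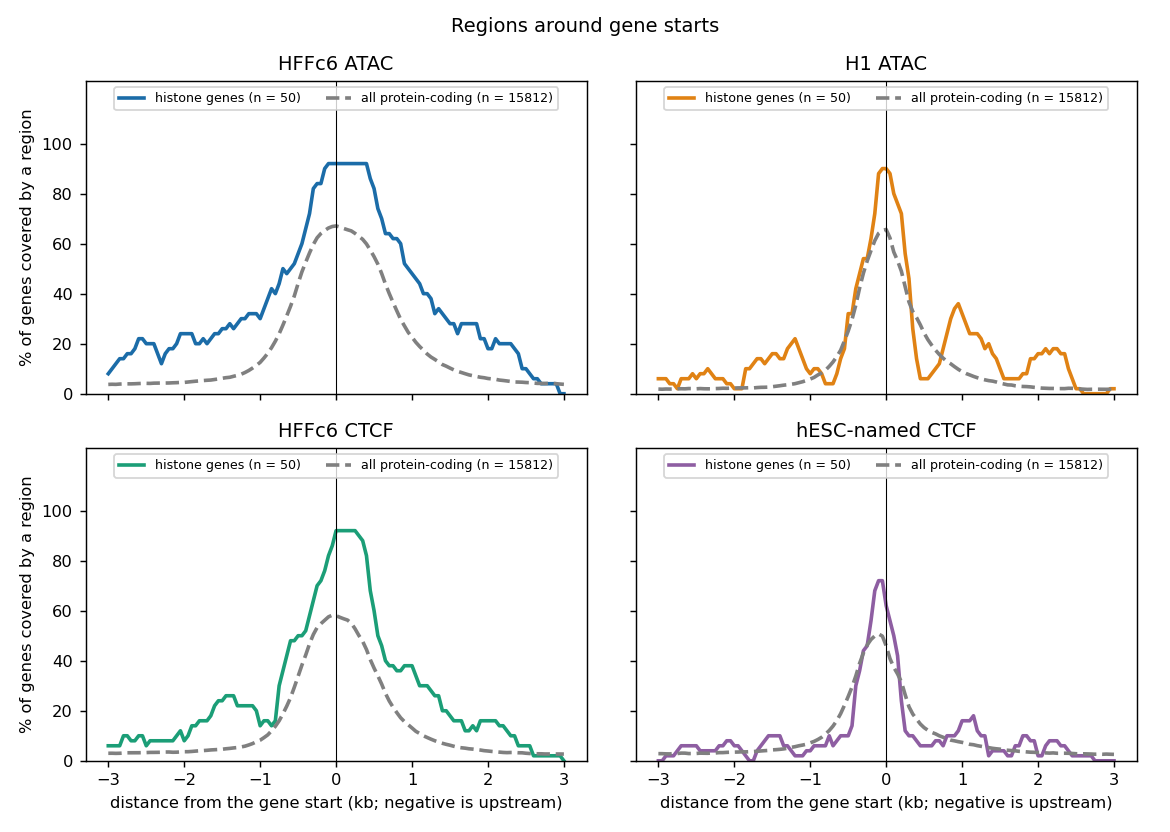
Percent of genes whose sequence at each distance from the start (x axis, kb, in steps of 50 bp) is covered by a region (y axis), for the 50 histone genes with a known start (solid) and 15812 protein-coding genes (dashed) in the 4 lists (panels). At the start 92% of histone genes are covered in HFFc6 ATAC and 90% in H1 ATAC. The H1 ATAC curve falls to 6% at 500 bp and stands at 36% at 950 bp.

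Head-to-head pairs showed openings between the starts. There were 10 pairs of members with diverging starts up to 1 kb apart, 9 of H2A with H2B genes and 1 of H3C7 with H2BC9. The starts lay 194 to 979 bp apart (median 242). A summit lay between the starts in 9 of 10 pairs in HFFc6 ATAC and 7 in H1 ATAC. For CTCF it was 3 pairs in the HFFc6 and 9 in the hESC-named list. A single region spanned both starts in 8 pairs, or 5 in the hESC-named list. H2AC1 and H2BC1, whose starts are 215 bp apart, had no summit between them in any list. H2AC8, whose printed sequence covers the stretch between its start and that of H2BC8, had its HFFc6 ATAC summit at −132 bp from the start.

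Between the members, more than 1 kb from each of them, lay 128 ATAC regions in HFFc6 and 191 in H1, and 95 CTCF regions in HFFc6 and 138 by the hESC-named list. Few were inside a sub-cluster: 8, 15, 7 and 9, the rest being in the gaps. Overlap with the other list of the assay was found for 75% (Wilson 95% interval 66.8 to 81.7) of HFFc6 and 66.0% (59.0 to 72.3) of H1 ATAC regions. Among CTCF regions it was 82.1% (73.2 to 88.5) for HFFc6 and 60.9% (52.5 to 68.6) for the hESC-named list. Over each whole list the shares were 34.7, 31.8, 50.9 and 41.3%.

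Within the sub-clusters, 2 sites without a histone gene are given, chosen after their values were seen. A site at chr6:26064303-26066549 was in all 4 lists, with ATAC fold enrichment up to 15.5 in HFFc6 and 14.1 in H1. Its CTCF fold enrichment reached 11.3 (HFFc6) and 13.4 (hESC-named). No protein-coding, tRNA, long non-coding RNA, antisense RNA or microRNA gene and no pseudogene lay within 1 kb. The site at chr6:26175124-26175961 was in both CTCF lists, at 19.6-fold (hESC-named) and 5.93-fold (HFFc6), without an ATAC region in either line.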

How the data were processed

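The data were 4 peak lists in the narrowPeak layout, 1 per group, with no values per library. BWA, MACS2, bedtools and the build hg38 are named in the submitters' processing notes. The tools' versions, filters, pooling of replicates, any Tn5 offset and the treatment of reads with several matches were not given in the sources used here. Peaks of the deposited lists carry a score, which was not used, the caller’s fold enrichment (a ratio of signal over background), a −log10 q-value, and the offset of the summit. The deposited lists end at a q of 0.05. Read depth is unknown from peak lists, so shares carry a counting interval only.

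Peaks on chromosomes 1 to 22 and X were compared with a RefSeq table of GRCh38 patch 14. A region belonged to a member when it lay within 1 kb of the gene body. It lay between members when it was within their span and farther than 1 kb from each, and it was shared when it overlapped the other list of its assay by 1 bp. Strand, start and 300 promoter bases came from the RefSeq promoter table. Every member could be named. Those given in full were the members of classes of 5 or fewer, the highest and lowest fold of each list, and the extremes of region number. Promoters were printed for 1 member per histone type, that with the highest HFFc6 ATAC fold, and 1 without such a region. H4C7 was taken over H1-6 because it shows a contrast in GGTCCG with the printed H4C6 of its type. The members and gene lists were chosen with earlier results of these data known. Alternatives were a window of 500 bp or 2 kb, a −log10 q of at least 10, lists of equal number, regions of 500 bp around the summit, 50% overlap, and the gene start in place of the body. Python 3.11.15, pandas 2.3.3 and numpy 2.4.6 were used. The overlap and distance steps were tested on simulated data, where 200 of 200 planted regions and 400 of 400 overlaps were called correctly. The other 10 libraries (H3K4me3, H3K27ac, SMC1) were not used here.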

Additional observations from a re-analysis of the deposited data

How the results depend on the processing

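Of 180 values recomputed under another setting, 160 kept to the main value (counts within 1.5 times, shares and percentiles within their counting interval) and 20 moved. With a window of 500 bp, members with a region only in HFFc6 CTCF numbered 7 in place of 4, and 100% of hESC-named CTCF regions at members were shared, in place of 93.0%. With 2 kb, 1 member in place of 2 lacked an ATAC region. With a −log10 q of at least 10, 4 members lacked an ATAC region and 15 had a CTCF region in HFFc6 only. The hESC-named CTCF regions then fell to 26 at members and 90 between them. The shared share at members became 98% for H1 ATAC and, for CTCF, 55.8% (HFFc6) and 100% (hESC-named), and between members 76.9% for H1 ATAC. The median percentile of strength became 35.9 for H1 ATAC and, for CTCF, 35.1 (HFFc6) and 23.2 (hESC-named). With lists of equal number the H1 ATAC percentile was 61.4. With 500 bp around each summit, 1 member had an ATAC region only in H1 and 1 a CTCF region only in the hESC-named list, and the shared share was 56.9% at members and 50.8% between them in H1 ATAC, and 79.1% at members in hESC-named CTCF. The stricter q leaves fewer regions to count. Percentiles under the stricter q and with lists of equal number were ranks among the regions kept, not among the full list. The cause of the other shifts was not tested. No paired analysis was possible because each list is 1 call with no values per library, and for the same reason no replicate could be left out.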

Other observations

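From 46.1 to 53.6% of the regions between the histone genes lay at tRNA genes and away from other protein-coding genes. Regions near both a tRNA gene and another protein-coding gene were counted with the latter, so the full share at tRNA genes may be higher. The interval holds 100 tRNA genes, which RNA polymerase III transcribes. A tRNA gene was within 1 kb, and no other protein-coding gene was, for 59 of the 128 ATAC regions between members in HFFc6 (46.1%). In H1 ATAC it was 94 of 191 (49.2%). For CTCF it was 49 of 95 in HFFc6 (51.6%) and 74 of 138 in the hESC-named list (53.6%). These were shared with the other list of the assay in 93.2, 86.2, 87.8 and 67.6% of cases. Other regions had no protein-coding, tRNA, long non-coding RNA, antisense RNA or microRNA gene and no pseudogene within 1 kb. They numbered 28, 44, 15 and 29 and were shared in 50, 34.1, 80 and 41.4%. Further kinds of RNA gene were not looked up. All 49 HFFc6 CTCF regions so counted at tRNA genes overlapped an HFFc6 ATAC region. At the start of another protein-coding gene lay 12, 12, 12 and 10 regions, shared in 91.7, 91.7, 75 and 80%. High sharing was thus not particular to the regions at tRNA genes. The share of each whole list that lies at tRNA genes is not given here. No difference between these sets was tested.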
